A study of Rattus norvegicus with 6 samples.

Results

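When exons of neighbouring genes overlap, a flattened annotation for exon counting cannot give every stretch of exon to 1 gene. The annotation step of DEXSeq then joins the genes into 1 identifier, a union, and writes the joined Ensembl gene identifiers with a plus sign between them. The exons are next split at every exon boundary into non-overlapping exon bins, and the bins of all joined genes are numbered in a single series along the chromosome. Neighbouring genes in mammalian genomes can overlap at their ends. Where the exons of joined genes overlap, reads from the overlap cannot be told apart by gene.

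The exon bins examined here were all bins whose identifier joins at least 2 genes, kept where at least 1 culture had a count. They numbered 5008 of the 6418 such bins listed, out of 194233 bins with a count and 246035 bins in all. The 378 unions joined 814 genes, none of which was also listed alone, and made up 1.16% of the 32447 identifiers.

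RNA was sequenced from rat cortical neurons taken at embryonic day 18, labelled as wild type, and grown at 400000 neurons per well. Adeno-associated viral vectors were added on day in vitro (DIV) 1, and the cells were lysed on DIV 8. AAV.ULK1.DN carries the C-terminal domain of the autophagy kinase ULK1, which acts as a dominant negative, and AAV.CTRL carries an untranslated fragment in its place (the labels call it AAV.mCherry). Both vectors also express the fluorophore mCherry and use the human synapsin promoter, which is active mainly in neurons, and each group had 3 cultures. The wells received 5000000 transducing units of AAV.CTRL or 9000000 of AAV.ULK1.DN, so that the dose of vector and the transgene cannot be told apart. The files hold Ensembl identifiers without gene names, and no table used here pairs them. The neuronal label was therefore not checked against marker genes, the roles of the joined genes are not given, and 4 unions are identified below while the others are described by letter or by size. In bulk RNA, fewer cells of a type and less RNA per cell cannot be told apart.

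Most unions were small in the number of genes. Of the 378 unions, 342 joined 2 genes, 30 joined 3 genes and 2 joined 4 genes, while 1 joined 6, 2 joined 7 and 1 joined 12 genes. Unions had a median of 12 bins, with a range of 2 to 127, against a median of 4 bins for identifiers of 1 gene. No union had a single listed bin, whereas 9382 identifiers of 1 gene (29.3%) did. After bins without reads were dropped, 14 unions were left with 1 bin, for which usage relative to other bins is undefined.

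Reads reached 317 unions (83.9%) and left 61 without any count, while 67.2% of identifiers of 1 gene had a count. The filter on low counts kept 249 unions (65.9%) and 44.5% of the identifiers of 1 gene for the expression test, and 129 unions, 68 of them with counts, were not tested. The number of bins moved with these shares. Among identifiers of 2 to 5 bins, 63.7% of unions and 61.9% of identifiers of 1 gene had a count. With 6 to 10 bins these shares were 89.1% and 89.0%, with 11 to 20 bins 92.3% and 95.4%, and with more bins 96.6% and 97.7%. The share with any count was thus similar at matched numbers of bins, but depth was not. The median summed count per culture was 638 in unions and 203 in identifiers of 1 gene at 6 to 10 bins, 988.5 and 719 at 11 to 20 bins, and 1667 and 1535 above that. The share tested was 29.8% and 33.6% at 2 to 5 bins, 76.1% and 68.1% at 6 to 10, 79.1% and 81.6% at 11 to 20, and 89.7% and 87.7% above that.

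Single bins were covered alike as well. A count was present in 78.0% of union bins and 79.0% of the other bins, and 3039 union bins (47.4%) had at least 10 counts in every culture, against 50.5%. The median bin with counts held 44.8 reads per culture in unions and 48.2 in identifiers of 1 gene.

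**Figure D1:**
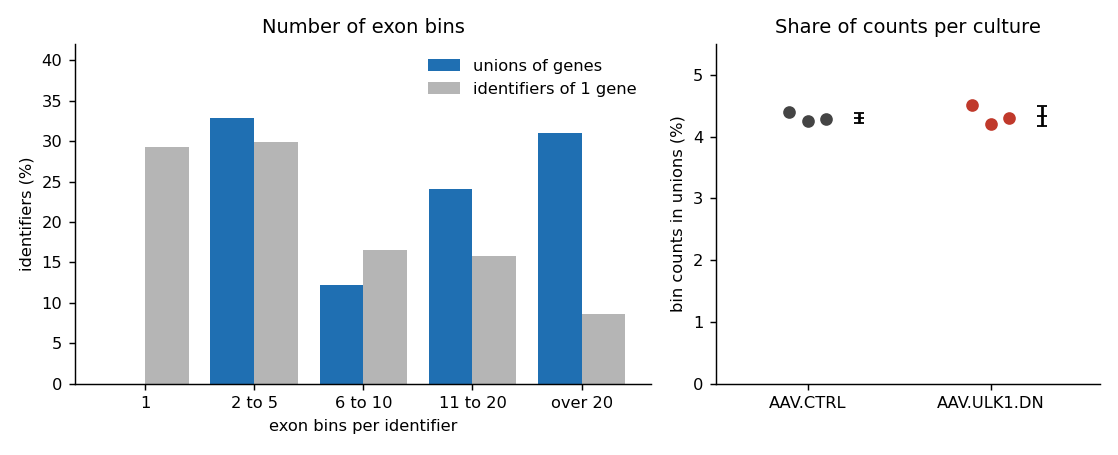
Left, share of identifiers (%) by number of listed exon bins, for 378 unions and 32069 identifiers of 1 gene. Right, share of all bin counts (%) that fell in unions, with 1 point per culture and the mean ± SD of 3 cultures beside them. The right-hand points lie between 4.20% and 4.52%, and the groups overlap.

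Unions took a small and steady share of the bin counts. Bins held 34352754 to 39842066 counts per culture. In the AAV.CTRL cultures 4.40, 4.25 and 4.28% of these fell in unions, and in the AAV.ULK1.DN cultures 4.52, 4.20 and 4.30%. The groups overlapped. The means were 4.31% ± 0.0809 and 4.34% ± 0.163 (SD, n = 3), a difference of 0.0277 percentage points (two-sided exact permutation test, p = 0.8, where 3 against 3 cultures cannot give a p below 0.1). Its sign followed single items: the difference was -0.0158 without the most abundant union, -0.0031 without AAV.CTRL culture 2 and -0.0624 without AAV.ULK1.DN culture 1. Reads set aside because they fell on several identifiers numbered 19861 to 22497 per culture. This was 0.0272 to 0.0304% of the sum of these reads, the bin counts and the reads outside bins. As a fragment may add to several bin counts, the share of fragments may be larger.

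A few unions carried most of that share. The 10 unions with the highest counts held 53.6% of all union counts and 2.32% of all bin counts. The first of them, a union of 3 genes in 5 bins, alone held 23.4% of union counts and 1.01% of all bin counts. Its normalised counts were 395415, 353804 and 376548 under AAV.CTRL and 444956, 349759 and 378686 under AAV.ULK1.DN. The groups overlapped, with a log2 fold change of 0.06 ± 0.09 (SE; edgeR adjusted p = 0.802). The next, a union of 2 genes in 13 bins, gave 141418, 133845 and 138951 normalised counts under AAV.CTRL and 121373, 109372 and 127980 under AAV.ULK1.DN. All 3 AAV.ULK1.DN cultures were lower, yet its log2 fold change of -0.21 did not pass (SE 0.066, edgeR adjusted p = 0.123). Over all 10, log2 fold changes ran from -0.21 to 0.11, none passed, and the groups overlapped in 8.

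The unions of the most genes ranged from almost no reads to many. The union of 12 genes, with 90 listed bins, had 0, 0 and 4 counts in the AAV.CTRL cultures and 1, 2 and 0 in the AAV.ULK1.DN cultures. Of the unions of 7 genes, the one with 84 bins had 161, 247 and 223 counts under AAV.CTRL and 199, 336 and 225 under AAV.ULK1.DN (log2 fold change 0.24, edgeR adjusted p = 0.690). The other, with 53 bins, had 25803, 22257 and 22473 counts against 23870, 25483 and 23021 (log2 fold change 0.03, edgeR adjusted p = 0.893). In all 3 the groups overlapped.

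The counts of bins within a union were less even than those within identifiers of 1 gene, a difference that was not tested. Among tested identifiers with at least 4 bins with counts, the highest bin held a median of 4.35 times the count of the identifier's median bin in 223 unions and 2.67 times in 11652 identifiers of 1 gene. The upper tail was longer too, with a 95th percentile of 57.2 against 13.0. The medians were 3.69 and 2.44 at 4 to 10 bins, 4.80 and 2.73 at 11 to 20 bins, and 4.43 and 3.09 above that. Bin lengths were not used here, so long and short bins count alike in this ratio.

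The expression of most unions was close in both groups. A union's expression count is the sum over all its bins and hence over all genes it joins. Of the 249 unions tested, 130 had a higher and 119 a lower mean in the AAV.ULK1.DN cultures, and the median log2 fold change was 0.01. The median absolute log2 fold change was 0.11 for unions and 0.13 for identifiers of 1 gene, and 71.1% of unions and 65.0% of the others stayed within 0.2 of zero. The median coefficient of variation between cultures of a group was 8.08% under AAV.CTRL and 7.89% under AAV.ULK1.DN in unions, against 8.51% and 9.41% in identifiers of 1 gene.

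With an adjusted p under 0.05 and a log2 fold change beyond 1 in either direction, no union was higher and 3 were lower in the edgeR quasi-likelihood test, which is 1.20% of the unions tested. Over all 14529 identifiers tested, 0.179% were higher and 1.94% were lower by these limits. DESeq2, with 317 unions tested, called 0 unions higher and 4 lower by these limits, beside 462 of all identifiers in either direction. At an unadjusted p under 0.05, edgeR gave 17 higher unions (6.83%) and 27 lower ones (10.8%), where all identifiers gave 8.45% and 11.7%. The counts did not overlap between the groups in 27 higher and 27 lower unions (10.8% each), and in 12.3% and 13.7% of all identifiers. For DESeq2 no share of all identifiers is given. By each of the other counts the share of unions was at or below that of all identifiers.

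By adjusted p alone, 2 unions were higher (0.803%) and 5 were lower (2.01%), beside 1.46% and 3.11% of all identifiers. These 7 are named A to G, in order of log2 fold change. Each joined 2 genes. Over all identifiers, same-numbered cultures deviated together. When the replicate number entered as a block, the same 7 were among 31 of 249 unions that passed by adjusted p (12 higher, 19 lower). Of these, 7 were lower beyond the fold limit. This fit passed 1980 of the 14529 identifiers by adjusted p and 540 by both limits, against 664 and 308 without the block. Leaving out 1 culture ended most calls. Without culture 1 or 2 of AAV.CTRL, or culture 1 of AAV.ULK1.DN, edgeR passed 0 of the 7. Over all identifiers these 3 fits passed only 1, 1 and 3, against 664 with all cultures. A, B and C passed without AAV.CTRL culture 3, A and G without AAV.ULK1.DN culture 2, and B without AAV.ULK1.DN culture 3.

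**Figure D2:**
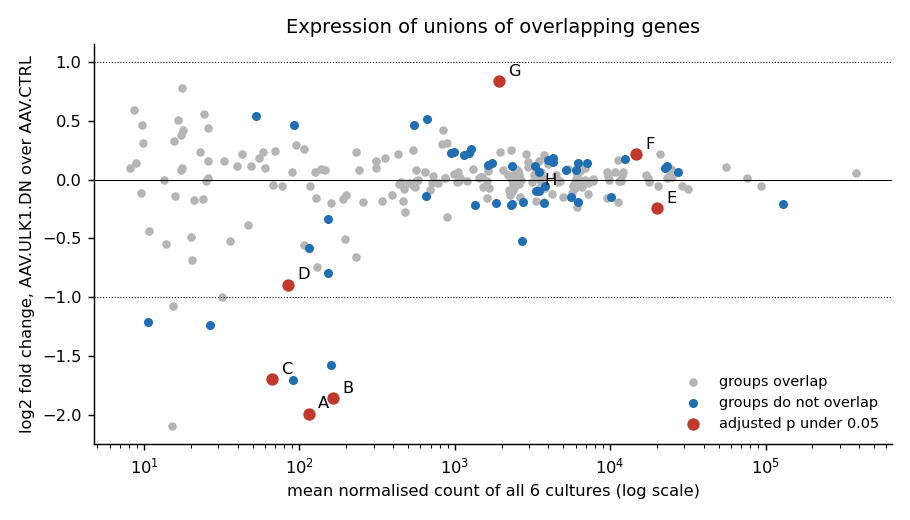
Log2 fold change of expression (AAV.ULK1.DN over AAV.CTRL) against the mean normalised count of all 6 cultures (log scale) for the 249 unions tested, with the fold limit dotted at 1 and -1. Red points A to G passed by adjusted p, blue points are other unions whose groups do not overlap, and H is a union with 1 bin called for usage. A, B and C lie between -1.99 and -1.70, the lowest union lies at -2.10 without passing, and no union lies above 0.84.

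Unions A, B and C fell beyond the fold limit, and all 3 had few reads. Union A (ENSRNOG00000056562+ENSRNOG00000019667, 33 bins) had 216, 211 and 116 counts under AAV.CTRL and 33, 59 and 47 under AAV.ULK1.DN. Every AAV.ULK1.DN culture lay below every AAV.CTRL culture, and AAV.CTRL culture 3 was the lowest of its group. The normalised count fell from 183 ± 61.9 to 45.9 ± 11.6 (SD, n = 3), a log2 fold change of -1.99 ± 0.32 (SE; edgeR adjusted p = 0.0233, 0.0085 to 0.0831 when 1 culture was left out). Its reads were spread thinly, since 1 bin alone averaged at least 10 counts and held 23.2% of them.

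Union B, of 21 bins, had 273, 307 and 185 counts under AAV.CTRL and 39, 84 and 93 under AAV.ULK1.DN, a log2 fold change of -1.86 ± 0.33 (SE; edgeR adjusted p = 0.0264, 0.0211 to 0.0932 with 1 culture left out). The decrease was not confined to 1 bin. All 7 of its bins that averaged 10 or more counts were lower, by log2 ratios of -2.34 to -1.58. These bins make up the sum by which B was named and are not replicates, as also holds for F and G. Union C, of 5 bins, had 95, 140 and 65 counts under AAV.CTRL and 21, 33 and 41 under AAV.ULK1.DN, a log2 fold change of -1.70 ± 0.38 (SE; edgeR adjusted p = 0.0455, 0.0310 to 0.138 with 1 culture left out). AAV.CTRL culture 3 was again the lowest of its group in both unions.

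Another 7 unions had a log2 fold change below -1 without passing, so that 10 of 249 (4.02%) were below -1 and none was above 1, beside 4.15% and 0.860% of all identifiers. The lowest value of all unions tested, -2.10, was among those that did not pass. The nearest to the threshold, a union of 24 bins, had 113, 182 and 113 counts under AAV.CTRL and 19, 54 and 56 under AAV.ULK1.DN. These groups did not overlap (log2 fold change -1.71 ± 0.40, edgeR adjusted p = 0.0544). A union of 40 bins had 189, 301 and 212 counts against 29, 59 and 157, with AAV.ULK1.DN culture 3 well above the other 2 of its group (log2 fold change -1.57 ± 0.51, edgeR adjusted p = 0.129). Unions of 33 and 3 bins gave -1.23 (edgeR adjusted p = 0.0924) and -1.21 (0.126) without overlap, on at most 42 counts in any culture. A union of 5 bins, inside the fold limit, gave -0.80 (edgeR adjusted p = 0.0685), also without overlap.

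Union D fell by less but with little spread. Its 25 bins held 104, 101 and 125 counts under AAV.CTRL and 54, 60 and 65 under AAV.ULK1.DN. The normalised count fell from 111 ± 11.4 to 59.4 ± 2.66 (SD, n = 3), a log2 fold change of -0.90 ± 0.19 (SE; edgeR adjusted p = 0.0399, 0.0803 to 0.129 with 1 culture left out). Taking only its most abundant bin gave an edgeR adjusted p of 0.121.

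Union G (ENSRNOG00000059652+ENSRNOG00000051264, 7 bins) rose the most of all unions tested. It had 1376, 1180 and 1586 counts under AAV.CTRL and 2873, 1789 and 2765 under AAV.ULK1.DN. All AAV.ULK1.DN cultures were higher, and culture 2 stood apart below the other 2. The normalised count went from 1383 ± 143 to 2477 ± 653 (SD, n = 3), a log2 fold change of 0.84 ± 0.18 (SE; edgeR adjusted p = 0.0437, 0.0493 to 0.153 with 1 culture left out). Bin 2 held 78.9% of the union's counts. The 4 bins averaging 10 or more counts were all higher, by log2 ratios of 0.59 to 1.16, and no bin of G passed for usage.

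Union F (ENSRNOG00000007111+ENSRNOG00000040424, 37 bins) rose by a small amount that was even across its length. Its counts were 13746, 12439 and 14596 under AAV.CTRL and 14967, 16167 and 16603 under AAV.ULK1.DN. The normalised count went from 13650 ± 567 to 15848 ± 58.7 (SD, n = 3), a log2 fold change of 0.22 ± 0.049 (SE; edgeR adjusted p = 0.0498, 0.0555 to 0.164 with 1 culture left out). This call lay at the threshold and was also lost with DESeq2's size factors (adjusted p = 0.0526), without the filter on low counts (0.0521) and with the most abundant bin alone (0.101) in edgeR. All 36 bins of F that averaged 10 or more counts were higher, and none passed for usage.

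**Figure D3:**
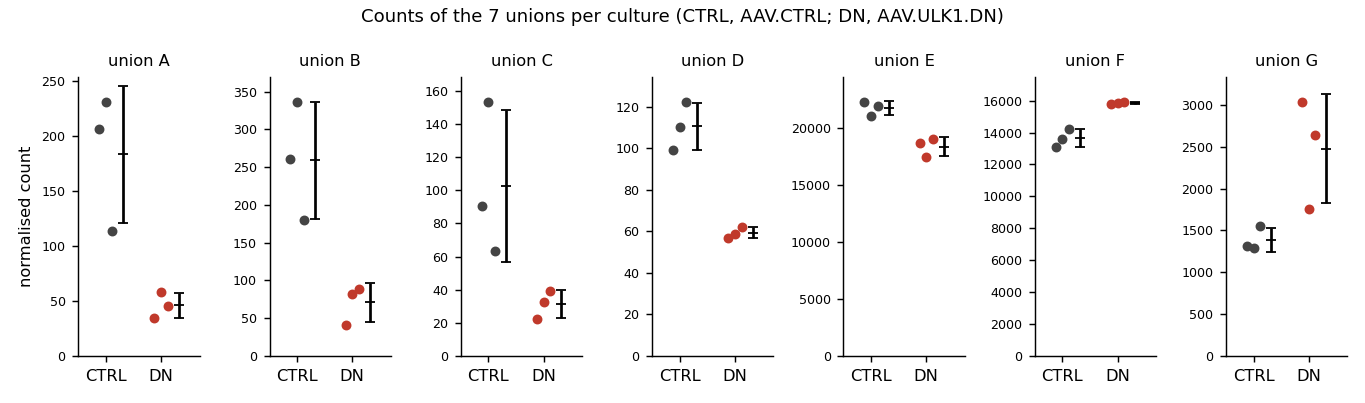
Normalised counts of unions A to G in each culture, on linear axes that start at 0 and differ between panels, with the mean ± SD of 3 cultures beside the points (CTRL, AAV.CTRL and DN, AAV.ULK1.DN). In all 7 panels the groups do not overlap, and the means go from 183 to 45.9 in union A and from 1383 to 2477 in union G.

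Union E (ENSRNOG00000020249+ENSRNOG00000020185, 16 bins) combined a small decrease of its sum with bins that went both ways. Summed counts were 23327, 19314 and 22501 under AAV.CTRL and 17690, 17786 and 19873 under AAV.ULK1.DN. The normalised count went from 21772 ± 596 to 18378 ± 811 (SD, n = 3), a log2 fold change of -0.24 ± 0.053 (SE; edgeR adjusted p = 0.0423, 0.0596 to 0.138 with 1 culture left out). This sum hides opposite directions at both ends of the union, as the bins show.

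Exon usage sets a bin's count against the sum of the other bins that carry its identifier. In a union it is therefore relative to bins of every joined gene, and a change of 1 gene's expression against its neighbour's can shift it without any change of splicing. The DEXSeq model passed 6 of the 4530 union bins for which a p-value was adjusted, 5 with higher usage (0.110%) and 1 with lower usage (0.0221%). Over all 171161 bins, 0.0169% had higher and 0.0263% lower usage. All 5 bins with higher usage lay in union E, so they share 1 set of reference bins and are not independent. The bin with lower usage lay in union H, described below. The diffSpliceDGE test of edgeR passed 2 of 4142 union bins, both in union E, and 0.0236% of all bins. Bins 9, 12 and 16 of union E and bin 15 of union H passed in the DEXSeq model only. On simulated counts, whose setting differed from these data, that model made more false calls than its threshold allows.

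Without adjustment, p was under 0.05 for higher usage in 92 of 4994 union bins (1.84%) and for lower usage in 107 (2.14%), where all bins gave 1.44% and 1.53%. The median absolute log2 change of usage was 0.128 in union bins and 0.121 in the others, and 0.076 and 0.072 among bins with at least 10 counts in every culture. By these medians the union bins as a whole shifted by about as much as the others. Their shares with an unadjusted p under 0.05 were higher than those of all bins, a difference that was not tested.

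The strongest usage result of all union bins was bin 8 of union E. Its counts were 178, 132 and 172 under AAV.CTRL and 224, 219 and 231 under AAV.ULK1.DN. As a percentage of the union's other bins these were 0.769, 0.688 and 0.770 against 1.28, 1.25 and 1.18. The groups lay far apart relative to their spread. The log2 change of usage was 0.73 ± 0.092 (SE; DEXSeq model adjusted p = 1.19e-11, diffSpliceDGE adjusted p = 0.00106).

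Its neighbour, bin 7, had 202, 166 and 193 counts against 278, 241 and 243, a log2 change of usage of 0.69 ± 0.11 (SE; DEXSeq model adjusted p = 9.77e-06, diffSpliceDGE adjusted p = 0.00159). Bins 7 and 8 passed under all 12 alternatives tried. Bin 9 had 154, 127 and 155 counts against 171, 198 and 179, a log2 change of usage of 0.57 (DEXSeq model adjusted p = 3.48e-04), but did not pass in diffSpliceDGE (adjusted p = 0.323), without AAV.CTRL culture 1 (DEXSeq model adjusted p = 0.0544), AAV.ULK1.DN culture 2 (0.0646) or with 1 dispersion round (0.101). These 3 adjacent bins had the largest called changes of usage in the union.

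Bins 16 and 12 passed more narrowly. Bin 16 had 211, 172 and 186 counts against 210, 211 and 222, a log2 change of usage of 0.42 (DEXSeq model adjusted p = 0.00908, diffSpliceDGE adjusted p = 1.00, and 0.0226 to 0.206 in the DEXSeq model with 1 culture left out). Bin 12 had 154, 150 and 167 counts against 179, 185 and 177, a log2 change of usage of 0.44 (DEXSeq model adjusted p = 0.0496, diffSpliceDGE adjusted p = 1.00, and 0.0124 to 0.958 in the DEXSeq model with 1 culture left out). With the replicate block, bin 12 no longer passed (DEXSeq model adjusted p = 0.0872).

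In bin order, union E fell into a front with many reads that was lower and a back with few reads that was higher. The border was set after the values were seen and was therefore not tested. Bins 1 to 6 were each lower in the AAV.ULK1.DN cultures, by log2 ratios of -0.32 to -0.25. Bins 7 to 16 were each higher, by 0.13 to 0.48. The change of sign coincided with the step in coverage.

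Summed over bins 1 to 6, the counts were 21674, 17960 and 20847 under AAV.CTRL and 15834, 15921 and 17981 under AAV.ULK1.DN. Their normalised sum went from 20128 ± 481 to 16399 ± 737 (SD, n = 3), a log2 ratio of -0.30. Bin 5 alone held 49.6% of the union's counts and went from 10901 ± 331 to 8891 ± 386. Its log2 change of usage was only -0.09 (DEXSeq model adjusted p = 0.146), as it is measured against bins that mostly moved with it.

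Summed over bins 7 to 16, the counts were 1653, 1354 and 1654 under AAV.CTRL and 1856, 1865 and 1892 under AAV.ULK1.DN. The normalised sum went from 1550 ± 56.9 to 1854 ± 88.3 (SD, n = 3), a log2 ratio of 0.26, and its share of the union from 7.15% ± 0.179 to 10.2% ± 0.559. All 10 of these bins had a higher usage, by 0.38 to 0.73 on the log2 scale, which is more than their log2 ratios of counts, as the bins they are set against were lower. Which bins belong to which of the joined genes is not given by the files.

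**Figure D4:**
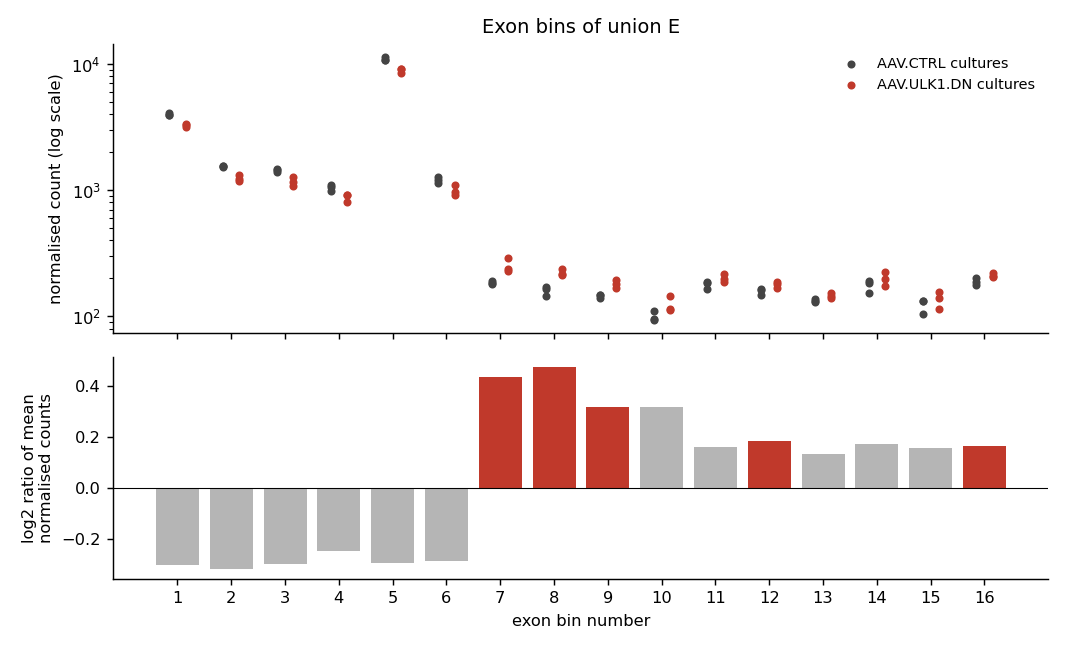
Exon bins 1 to 16 of union E. Top, normalised count (log scale), 1 point per culture. Bottom, log2 ratio of the mean normalised counts, AAV.ULK1.DN over AAV.CTRL, with the 5 bins called for usage in red. Bins 1 to 6 lie between -0.32 and -0.25 and bins 7 to 16 between 0.13 and 0.48.

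Union H joins 2 genes in 24 bins and did not pass for expression. Its summed counts were 3642, 3110 and 3470 under AAV.CTRL and 3117, 3064 and 3463 under AAV.ULK1.DN, a log2 fold change of -0.09 ± 0.057 (SE; edgeR adjusted p = 0.420). Bin 15 had 217, 179 and 203 counts under AAV.CTRL and 117, 146 and 158 under AAV.ULK1.DN, and the groups did not overlap. The log2 change of usage was -0.45 ± 0.10 (SE; DEXSeq model adjusted p = 0.0288). This call was not made by diffSpliceDGE (adjusted p = 1.00) or with the replicate block (DEXSeq model adjusted p = 0.187), and of the 6 fits without 1 culture it passed only without AAV.ULK1.DN culture 2 (0.0354, highest 1.00).

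Most bins in front of bin 15 were lower as well. Bin 16 had a lower log2 ratio than bin 15 (-0.77 against -0.53) on 35, 27 and 19 counts against 17, 11 and 20, which overlapped. Of bins 1 to 17, 15 had a lower mean in the AAV.ULK1.DN cultures, and their normalised sum went from 1788 ± 99.7 to 1486 ± 133 (SD, n = 3), a log2 ratio of -0.27. Bins 18 to 20, the next in order, went from 1136 ± 75.0 to 1231 ± 107 and overlapped between the groups. The last 4 bins went from 480 ± 14.8 to 465 ± 30.2. Bins 1 to 17 thus made up 52.5% ± 2.37 of the union under AAV.CTRL and 46.7% ± 2.78 under AAV.ULK1.DN. These borders, too, were set after the values were seen and were not tested.

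**Figure D5:**
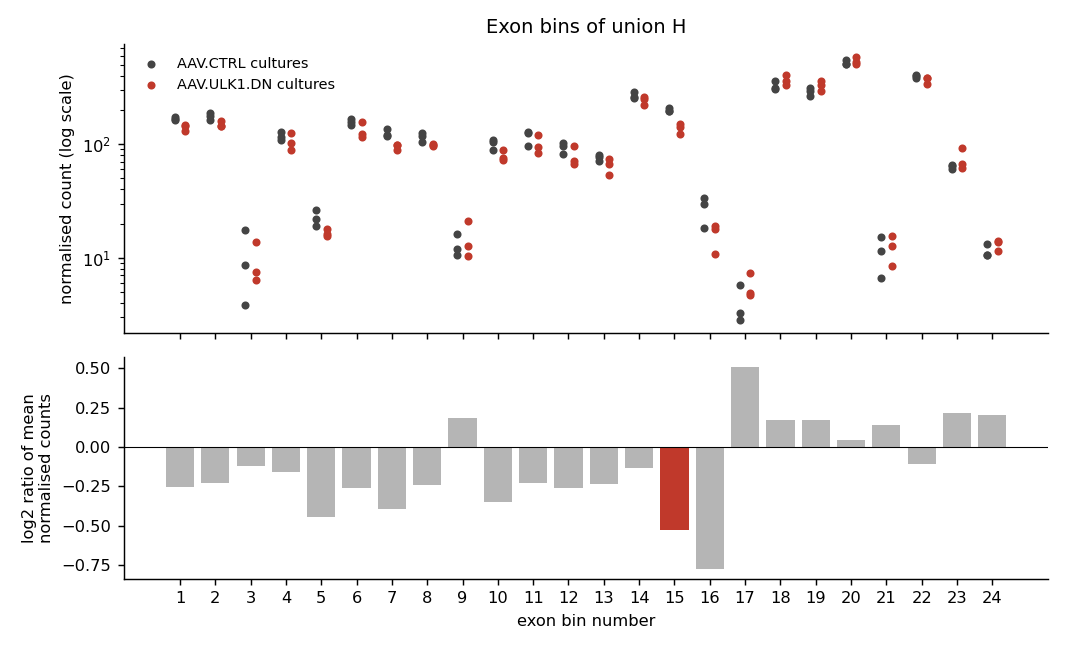
Exon bins 1 to 24 of union H. Top, normalised count (log scale), 1 point per culture. Bottom, log2 ratio of the mean normalised counts, AAV.ULK1.DN over AAV.CTRL, with bin 15, the 1 bin called for usage, in red. Of bins 1 to 17, 15 lie below zero, while bins 18 to 20 lie between 0.04 and 0.17.

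Outside E and H, no union bin passed with all 6 cultures and no block. With the replicate block, bin 14 of union E (log2 change of usage 0.42, DEXSeq model adjusted p = 0.0214, 0.1998 without the block) and bin 17 of an 18-bin union (-0.25, 0.0489, 1.00 without the block) passed in addition. The latter bin had 684, 544 and 562 counts in AAV.CTRL cultures and 453, 499 and 508 in AAV.ULK1.DN cultures. Without the block, the smallest p-values outside E and H belonged to bin 10 of a 36-bin union (log2 change of usage 0.22, DEXSeq model adjusted p = 0.127), bin 5 of a 10-bin union (-0.36, 0.421) and bins 44 and 45 of a 51-bin union (0.53 and 0.46, 0.530 and 0.605). Of the 15 union bins with the smallest p, 10 were in union E.

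The spread of bins within an identifier was of similar size in unions and elsewhere, as a description without a test. Among identifiers with at least 4 bins of 10 or more counts in every culture, the SD of the bins' log2 ratios had a median of 0.116 in 174 unions and 0.104 in 8841 identifiers of 1 gene. Later bins were set against earlier bins by the difference of their mean log2 ratios, split at the middle of the order. The absolute difference had a median of 0.0730 in unions and 0.0679 in the others. It exceeded 0.3 in 4 unions (2.30%) and in 4.26% of identifiers of 1 gene, and union E, with 0.307, ranked 4 of 174 unions.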

How the data were processed

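The authors aligned paired-end reads of 6 TruSeq v2 libraries, a kit that does not mark strand, with STAR 2.5.2a to rn6 (Ensembl release 93) and deposited raw counts per exon bin in the format of DEXSeq. The strand setting and quality filter of the counting are not given in the sources used here. A fragment that reaches several bins may be counted in each, so a summed count exceeds the fragments behind it. Closing rows of reads outside bins were left out of library sizes. They held 30985034 to 35977999 reads per culture, beside 34352754 to 39842066 bin counts. Why so many reads lay outside bins was not tested.

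Groups followed the labels. Bin counts were summed per identifier and tested with edgeR 4.0.16 (quasi-likelihood, TMM, filterByExpr) in R 4.3.3. Normalised counts of unions use TMM library sizes, and those of bins use size factors of DESeq2 1.42.0. Usage was tested with the DEXSeq model rebuilt from DESeq2 functions with 10 dispersion rounds (likelihood-ratio test, independent filtering). P-values were adjusted by Benjamini-Hochberg over all identifiers or bins. On simulated counts the DEXSeq model and DESeq2's gene test made more false calls than their threshold allows, and edgeR's tests came closer to it. The simulated bins were drawn independently, whereas real bins can share fragments. The planted usage changes were larger than those called in unions.

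Nothing states whether the same-numbered cultures were prepared together. Deviations from the group means correlated at 0.391, 0.445 and 0.273 between same-numbered cultures over 14529 identifiers and at -0.330 to -0.0127 between others. Such deviations cancel out within a group, so the negative values of the other pairs are not separate evidence. Over the 249 unions alone they did not separate, with 0.158, 0.181 and 0.474 for same-numbered cultures against -0.356 to 0.169 for others. All same-numbered pairs were above 0.1, as was AAV.CTRL culture 1 with AAV.ULK1.DN culture 2 over the unions (0.169). The numbers were taken to pair the cultures on the values over all identifiers. The main tests did not use this pairing, which entered only as the replicate block. The labels call the samples replicates, and the study describes them as independent cultures. No batch is given. With 3 cultures per group, SDs and SEs rest on few values.

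The unions to describe and the lists were chosen with earlier results of these data known. Named were unions passing either test, the 10 with most counts, those joining the most genes, the 10 with the largest change without overlap and the bins with the smallest p. The lists of pathway genes and cell type markers could not be applied, as no table paired the identifiers with names. Alternatives were DESeq2, other normalisation and filters, the most abundant bin per identifier, diffSpliceDGE, the replicate block and each culture left out. A single dispersion round was added after seeing the data.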

Additional observations from a re-analysis of the deposited data

How the results depend on the processing

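The count of 3 unions passing both limits was 3 or 4 with DESeq2, its size factors, no filter on low counts or the most abundant bin alone, and the 3 unions were kept in each. It was 7 by adjusted p alone (14 with DESeq2 and 31 with the replicate block), 7 with the replicate block, and 0 to 3 with 1 culture left out, where a refit has fewer cultures for the spread. Over all identifiers, adjusted p alone passed 664, and it passed 1409 with DESeq2 and 1980 with the replicate block. The count of 6 union bins passing for usage stayed at 5 or 6 with TMM factors, the stricter bin filter, no independent filtering or the replicate block, which kept 4 of the 6 and passed 2 others. It was 2 with diffSpliceDGE and 2 with 1 dispersion round (chosen after seeing the data), the cause of which was not tested, and ranged from 3 to 10 with 1 culture left out (3 without AAV.CTRL culture 1 or 2 or AAV.ULK1.DN culture 1, 10 without AAV.ULK1.DN culture 3). Over all bins, the main fit passed 74, diffSpliceDGE 37, 1 dispersion round 40 and the replicate block 94. With 1 culture left out, 47 to 89 of all bins passed. These were 51, 47 and 59 in the fits with 3 union bins and 84 in the fit with 10. Bins 7 and 8 of union E passed under all 12 alternatives.

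The difference in the share of counts in unions turned to -0.0158 percentage points without the most abundant union, and ran from -0.0624 to 0.0971 with 1 culture left out (-0.0031 without AAV.CTRL culture 2). By sign flips of the paired differences, a permutation test with the replicate block, it was 0.0277 with p = 0.75. The calls that the pairing of cultures gained or lost among union bins are given beside the results. No log2 fold change of unions A to G or of a called bin changed sign under any alternative. Their normalised counts did not overlap between the groups, so leaving out 1 culture could hardly have changed a sign. Unions A to D rest on at most 307 counts per culture, which limits what their single bins can show.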
